A study of Equus caballus with 4 samples.

Results

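Aminoacyl-tRNA synthetases join each amino acid to its transfer RNA. The genes described here were a list of 36 symbols, 20 for cytosolic enzymes and 16 for their mitochondrial counterparts, matched to the gene name column of an Agilent horse microarray. Of these 36 genes, 30 had a probe under their own symbol, 19 cytosolic and 11 mitochondrial, among 24971 gene or transcript names on the array. The other 6 (SARS, AARS2, MARS2, SARS2, TARS2 and WARS2) were named only in the description of probes listed under a transcript accession, and are given separately.

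The study asked how β-hydroxy-β-methylbutyrate (HMB), a leucine metabolite used as a feed supplement in sport horses, altered gene expression in equine satellite cells, the stem cells of skeletal muscle. The cells came from m. semitendinosus of young healthy colts, were grown in culture and were then moved to a low-serum differentiation medium. HMB was added after day 2 of differentiation, and RNA was taken 24 h later, on day 3, from treated cells and from control cells kept in differentiation medium alone. On each of 4 two-colour arrays, described in the labels as biological replicates, RNA of HMB-treated cells carried the dye Cy5 and RNA of control cells the dye Cy3. The dyes were never exchanged, so a dye effect particular to a probe and an effect of HMB cannot be told apart. A description field in the labels calls the treated cells GO-treated, while the titles of the same samples call them HMB-treated, and the ratios are read here as the titles have it. The labels give the dose as 50 µg with no volume and the methods as a molar concentration, and which colts supplied which array was not stated in the sources used here. All arrays shared 1 slide and 1 scan day.

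A synthetase activates its amino acid with ATP and transfers it to the matching tRNA, which the elongation factors then carry to the ribosome. In the cytosol of animal cells, several of these enzymes are held together with scaffold proteins in a multi-synthetase complex, and the rest act outside it. Mitochondria use a separate set encoded by nuclear genes, except that GARS and KARS each give both forms, and in mammalian cells many of the cytosolic genes are known targets of the transcription factor ATF4, which acts when amino acids are short.

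Values are log2 ratios of HMB-treated over control cells, so that 0 is no difference and a positive value is higher with HMB. A gene was tested when its probe stood well above background in the same channel on all 4 arrays, and a gene with several probes was represented by its brightest tested probe. In total 28 of the 30 genes were tested, 18 cytosolic and 10 mitochondrial. Both dyes gave a signal well over background for each of the 36 tested probes on each array. The probes for the leucyl enzymes, LARS and LARS2, were not well above background in either channel on any array, so neither leucine-charging enzyme had a measured response.

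In the deposited ratios few synthetase genes passed the test, while without the lowess step of the dye normalisation 7 of 28 did, against 24.9% of all genes. By limma with Benjamini-Hochberg adjustment over 27384 probes, 1 of 28 genes passed an adjusted p of 0.05, CARS, which was higher, and 0 were lower. Among all 15599 genes or transcripts tested, 22.4% passed, 10.9% as higher and 11.5% as lower, and 22.8% of all probes passed. At an unadjusted p under 0.05 limma gave 5 of the 28 genes, against 37.9% of all genes, and the unmoderated test named in the study's supplementary workbook gave 1 after adjustment, FARSB, which was higher, against 2.63%. That unmoderated test gave 4 of the 28 genes at an unadjusted p under 0.05. Its background was counted over probes and not over genes, at 8435 of all 27384. No member's mean reached the fold minimum given there, 1.3, so 0 of the 28 could pass with it, whatever their p. Of all probes, 3425 passed with that minimum, or 451 after adjustment.

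The sizes were small in the deposited ratios. Means ran from -0.33 for NARS2 to 0.21 for CARS, and the median size with the sign dropped was 0.09, against 0.15 over all genes. Only 1 of 28 genes, NARS2, exceeded a size of 0.25, against 28.8% of all genes. With normexp and loess 0 of 28 did, against 19.3%, and without lowess 7 of 28, against 33.1%. The spread between arrays was similar, with a median SD of 0.14 for the synthetases and 0.16 over all genes (n = 4 arrays). Among the 95% intervals of the 28 genes, the lowest limit was -0.57 (NARS2, 0.675-fold) and the highest 0.40 (FARSA, 1.32-fold). Each interval is for 1 gene in the deposited ratios, so these limits are no joint 95% bound and do not cover the other scalings.

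**Figure D1:**
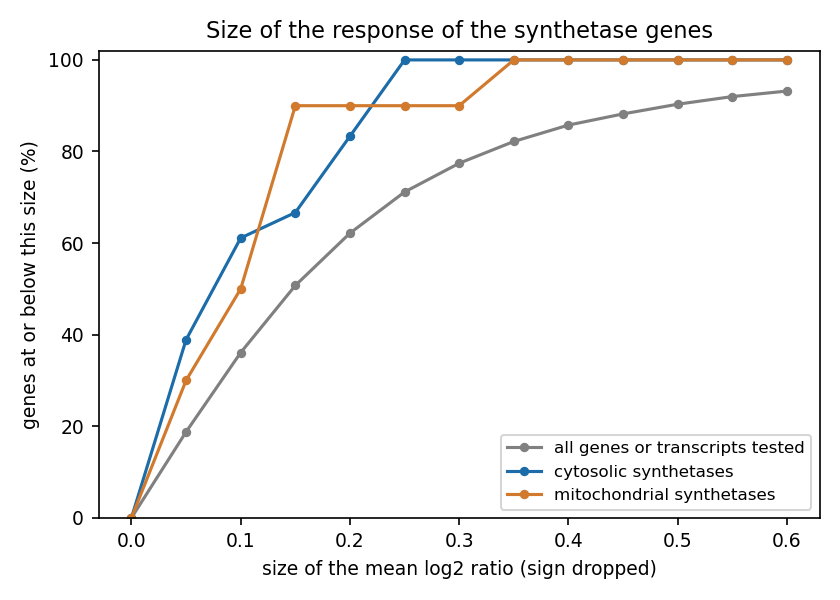
Share of genes (y axis, %) whose mean log2 ratio is at or below a given size with the sign dropped (x axis, log2 units), for 18 cytosolic synthetases, 10 mitochondrial synthetases and all 15599 genes or transcripts tested. Both synthetase curves lie above the curve of all genes, and all 18 cytosolic genes lie at or below 0.25.

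**Figure D2:**
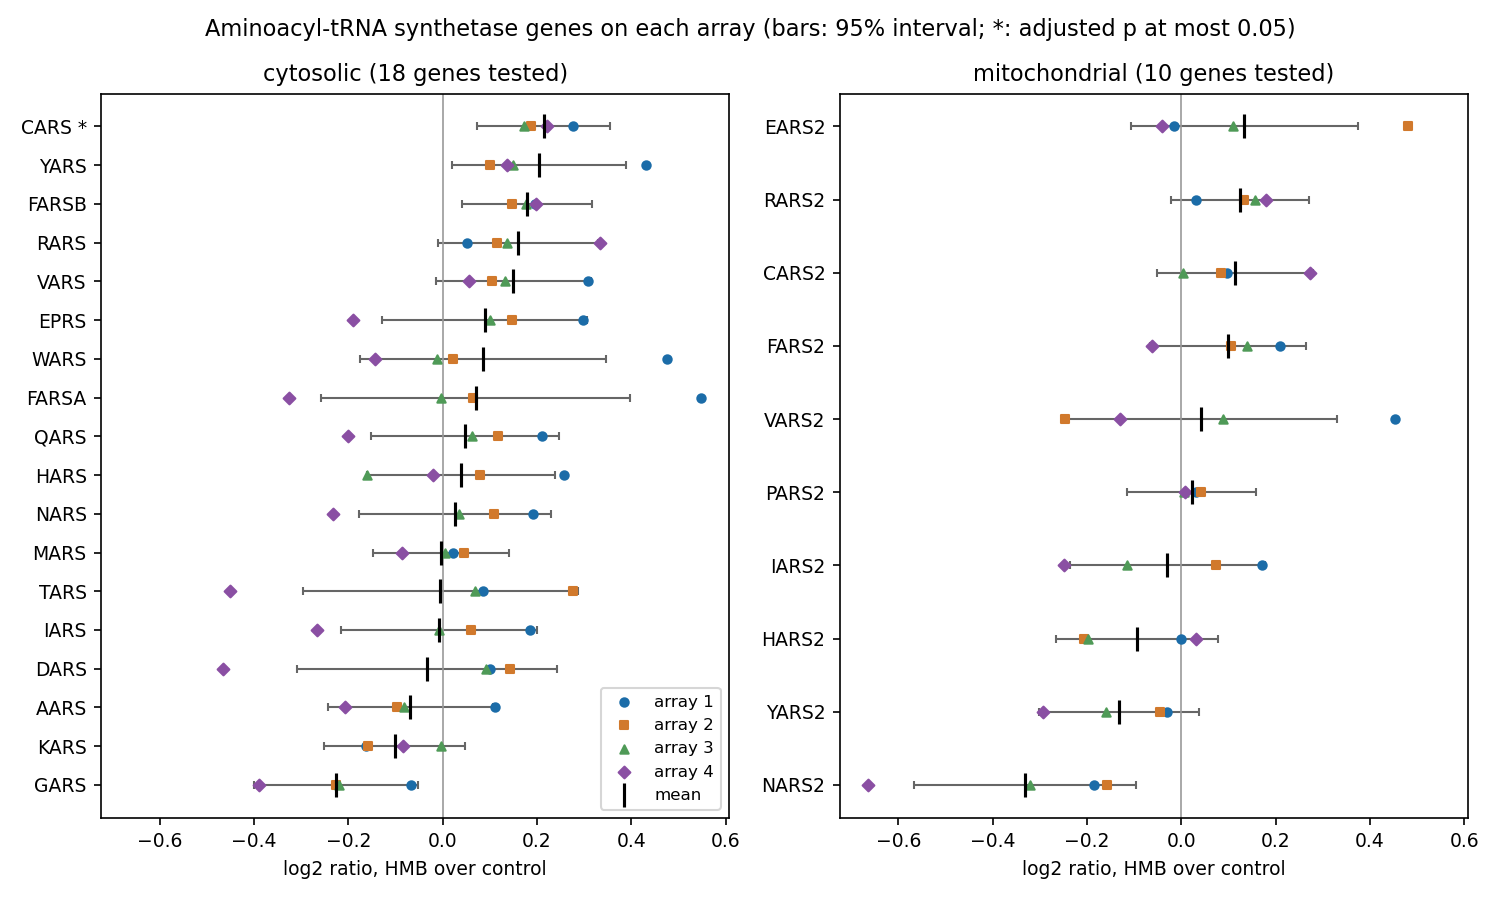
Log2 ratio of HMB-treated over control cells (x axis) for each tested synthetase gene (y axis), with the 4 arrays as coloured symbols, the mean as a black bar and the limma 95% interval as a line. CARS, marked with a star, passed an adjusted p of 0.05, and many cytosolic genes have array 1 at the right and array 4 at the left.

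CARS, the cytosolic enzyme that charges tRNA with cysteine and lies outside the complex, carried the single call. Its probe matched transcript ENSECAT00000006718 on an unplaced scaffold of the EquCab1 build, from 276565542 to 276565601. The last 30 bases are shown because this probe alone supports the called gene, with the letters AATAAA, the usual polyadenylation signal, in capitals.
CARS: tgccgtcctctgagacgtcagtAATAAAgt
The log2 ratios of CARS on arrays 1 to 4 were 0.28, 0.19, 0.17 and 0.22. All 4 arrays were on the same side of 0, with a mean of 0.21 (SD 0.05, 95% interval 0.07 to 0.36), a fold of 1.16, and a limma adjusted p of 0.045. The call was lost without array 1, 2, 3 or 4, with limma adjusted p of 0.0857, 0.169, 0.139 and 0.0741. It was also lost with normexp background correction and loess (limma adjusted p = 0.0676), with the channels unpaired (limma adjusted p = 0.212) and by the unmoderated test, so it rests on a value close to the threshold. AATAAA as the probe is listed was found in 5 of the 38 synthetase probes (13.2%) and in 8.64% of all 43603 probes, and on both strands in 6 of 38 and 11.9%.

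In the multi-synthetase complex, 7 of 8 synthetases were tested (EPRS, IARS, MARS, QARS, RARS, KARS and DARS). By limma 0 passed, against 22.4% of all genes. At an unadjusted p under 0.05 limma gave 0 of the 7, against 37.9%. The median of the 7 was -0.0038, and 0.16 with ratios centred and no lowess step in the dye normalisation. With 1 array left out it ran from -0.02 without array 2 to 0.10 without array 4. RARS, for arginine, had the highest mean of the 7, 0.16, and was positive on all 4 arrays at 0.05, 0.12, 0.14 and 0.33, with a limma adjusted p of 0.148. EPRS, which charges both glutamate and proline, stood at 0.09 and QARS, for glutamine, at 0.05. IARS, for isoleucine, at -0.01 and MARS, for methionine, at 0.00 lay close to 0.

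DARS, the aspartyl enzyme of the complex, gave 0.10, 0.14, 0.09 and -0.47. Arrays 1 to 3 lay together above 0 and array 4 stood far below, so that the mean of -0.03 lay away from each of the 4 values. The scaffold proteins of the complex showed no call either, with AIMP1 at 0.04, AIMP2 at 0.02 and EEF1E1 at 0.17 (limma adjusted p = 0.211). At an unadjusted p under 0.05 limma gave 0 of these 3, against 37.9% of all genes. The median of these 3 was 0.04, and 0.13 without lowess.

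KARS, for lysine, which serves both cytosol and mitochondria, had 2 probes that directly adjoin each other on chromosome 3, chr3:24379364-24379423 and chr3:24379424-24379483, both for ENSECAT00000014538. The last 30 bases of each are shown because the probes differed in sign, with AATAAA in capitals where present.
KARS lower position: tcctttttattccttgttaccaAATAAAcc
KARS higher position: ctatccattgactatcacagtgcaggtcag
The brighter probe, at the higher position, gave -0.16, -0.16, 0.00 and -0.08 on arrays 1 to 4, a mean of -0.10 (limma adjusted p = 0.277). The probe ending in the AATAAA stretch gave 0.01, 0.10, 0.30 and 0.14, a mean of 0.13 (limma adjusted p = 0.209). Neither passed, and the sign of KARS in the deposited ratios depends on which of 2 neighbouring probes is read. Without lowess both were above 0, at 0.50 and 0.44, and with normexp and loess at 0.08 and 0.10.

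GARS, for glycine, the other gene that gives both forms, also had 2 adjoining probes, chr4:60686381-60686440 and chr4:60686441-60686500, both for ENSECAT00000020944. Their last 30 bases are shown because these probes, unlike those of KARS, gave like values in the deposited ratios.
GARS lower position: aaacagcattgcaattgctcccagggactg
GARS higher position: cccccaacaattaaagttgaaggaattctg
The brighter probe, at the higher position, gave -0.07, -0.23, -0.22 and -0.39 on arrays 1 to 4. Its mean was -0.23 (95% interval -0.40 to -0.05, limma adjusted p = 0.069), and the other probe had a mean of -0.22 (limma adjusted p = 0.092). All 4 arrays were below 0 in the deposited ratios, but without the lowess step of the dye normalisation the same probe gave 0.34, 0.49, 0.59 and 0.41, a mean of 0.46 with a limma adjusted p of 0.00652. The other probe had a mean of 0.23 there and did not pass (limma adjusted p = 0.0600). With normexp and loess the means were -0.04 and -0.18, so the direction of GARS is not settled by these ratios.

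That dependence was not limited to GARS. When background-subtracted ratios were centred on each array's median with no lowess, KARS gave 0.50 (limma adjusted p = 0.0141) and AARS 0.27 (limma adjusted p = 0.0255), against -0.10 and -0.07 in the deposited ratios. GARS, KARS and AARS had the brightest probes of the 28 genes, at mean log2 signals of 15.8, 15.4 and 14.5. The 7 genes that passed under this scaling were AARS, CARS, FARSB, GARS, KARS and VARS as higher and NARS2 as lower. The sign differed from the deposited ratios for 9 of 28 genes without lowess (AARS, EARS2, GARS, IARS, KARS, MARS, PARS2, TARS and VARS2) and for 1 of 28, KARS, with normexp and loess, where the brighter KARS probe gave 0.08. The median over all genes was 0.02 in the deposited ratios, 0.00 with normexp and loess and -0.01 without lowess.

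**Figure D3:**
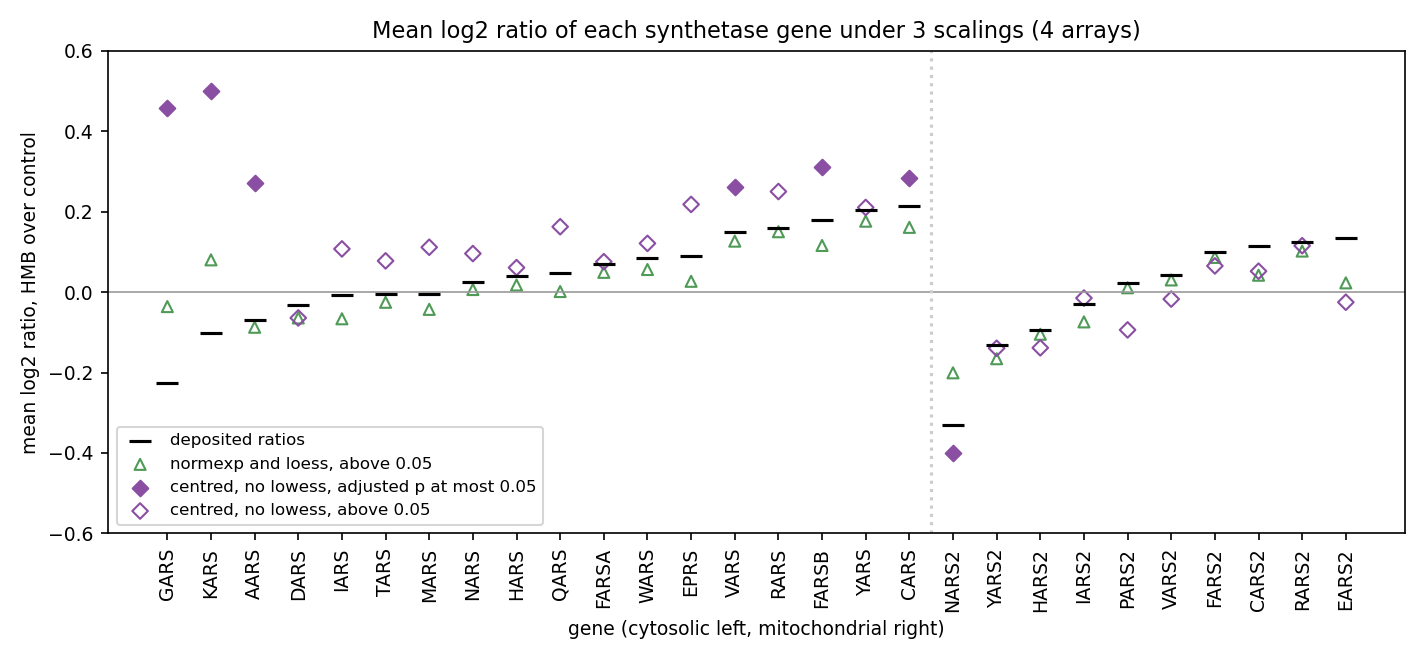
Mean log2 ratio over 4 arrays (y axis) of each tested synthetase gene (x axis) in the deposited ratios (bars), after normexp and loess (triangles) and centred without lowess (diamonds, filled where the limma adjusted p is at most 0.05). GARS, KARS and AARS lie below 0 in the deposited ratios and at 0.46, 0.50 and 0.27 without lowess.

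Of the cytosolic enzymes outside the complex, apart from CARS and GARS, FARSB and YARS came nearest to the threshold. FARSB, a subunit of the phenylalanyl enzyme, gave 0.20, 0.15, 0.18 and 0.20, a mean of 0.18 (SD 0.02, limma adjusted p = 0.067), which is the tightest set of 4 arrays among the cytosolic genes. FARSA, the other subunit of the same enzyme, gave 0.55, 0.06, 0.00 and -0.33, a mean of 0.07 (SD 0.36). The subunits of this enzyme thus had the narrowest and the widest spread of the cytosolic set.

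YARS, for tyrosine, gave 0.43, 0.10, 0.15 and 0.14, a mean of 0.20 (limma adjusted p = 0.104). VARS, for valine, stood at 0.15, HARS, for histidine, at 0.04, NARS, for asparagine, at 0.03, TARS, for threonine, at -0.01 and AARS, for alanine, at -0.07. The 5 AARS probes were shifted by 1 base from one to the next and count as a single measurement, with means from -0.07 to -0.03. WARS, for tryptophan, is known in mammals as a gene that interferon-gamma induces, and it gave 0.48, 0.02, -0.01 and -0.14, a mean of 0.09 (limma adjusted p = 0.598).

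Among the 18 cytosolic genes the arrays stood apart from each other. The median log2 ratio was 0.19 on array 1, 0.10 on array 2, 0.05 on array 3 and -0.17 on array 4, a mean of 0.04 (SD 0.15, n = 4 arrays), which is smaller than its spread. On array 1, 16 of 18 genes were above 0 and on array 4, 5 of 18. Array 1 held the highest value for 12 of the 18 genes and array 4 the lowest for 12, against 34.0% and 34.4% of all genes. The median over all genes was 0.01 on arrays 1, 2 and 4 and 0.03 on array 3. The cytosolic median of the gene means was 0.04 in the deposited ratios, -0.03 without array 1 and 0.12 without array 4. It was 0.02 with normexp and loess and 0.19 without lowess, where 17 of 18 genes were above 0 and the array medians were 0.23, 0.18, 0.19 and 0.09.

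**Figure D4:**
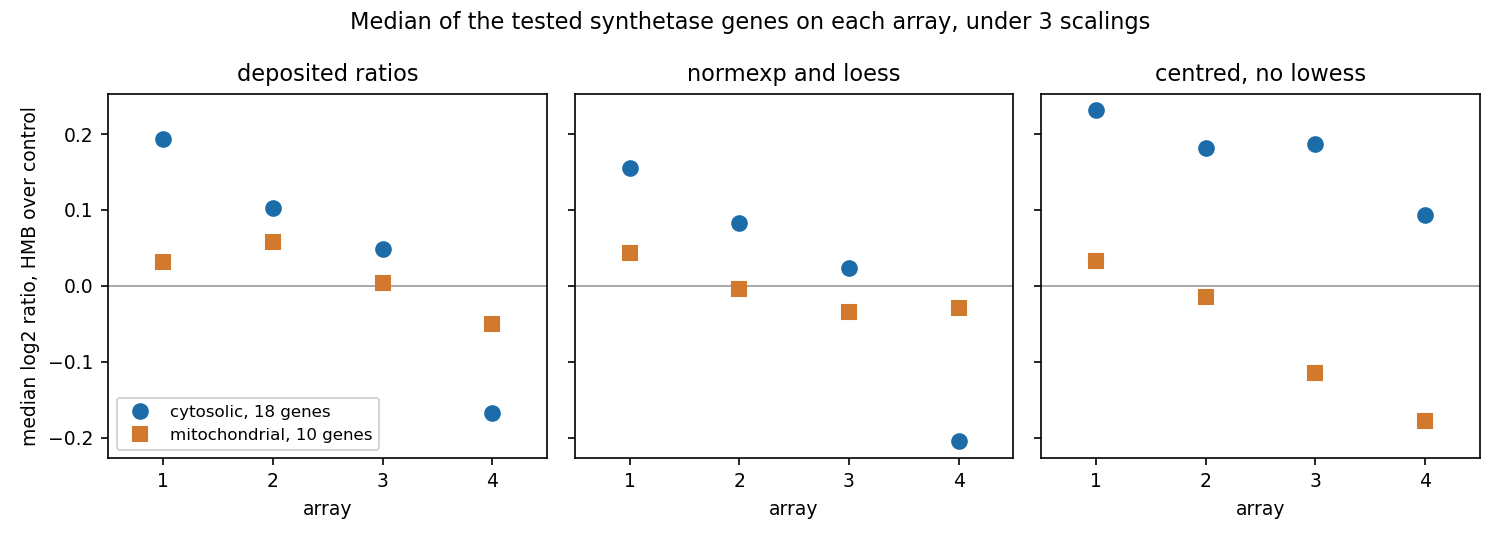
Median log2 ratio of HMB-treated over control cells (y axis) on each array (x axis) for 18 cytosolic (circles) and 10 mitochondrial (squares) synthetase genes, in the deposited ratios, after normexp and loess, and centred without lowess. The cytosolic median on array 4 is -0.17 in the deposited ratios, -0.20 after normexp and loess and 0.09 without lowess.

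Among the 10 mitochondrial enzymes 0 passed by limma, against 22.4% of all genes, and 1, NARS2, had an unadjusted p under 0.05, against 37.9%. The median was 0.03, with array medians of 0.03, 0.06, 0.0042 and -0.05, and it was below 0 without lowess (-0.021) and without array 1 (-0.038). The difference of cytosolic minus mitochondrial medians on arrays 1 to 4 was 0.16, 0.05, 0.04 and -0.12. Their mean of 0.03 (SD 0.11) was smaller than the spread between arrays, as was that of 0.02 (SD 0.13) with normexp and loess. Without lowess the differences were 0.20, 0.20, 0.30 and 0.27, all above 0 and with a mean of 0.24 (SD 0.05) beyond their spread, so this comparison turns on the scaling. The 2 sets also differed in brightness. Mean log2 signal of the tested genes ran from 9.59 (DARS) to 15.8 (GARS) in the cytosolic set. In the mitochondrial set it ran from 5.47 (EARS2) to 11.4 (IARS2). The part of brightness in the difference without lowess was not tested. Leaving GARS and KARS out of the cytosolic set gave a cytosolic median of 0.06.

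NARS2, the mitochondrial asparaginyl enzyme, had the lowest mean of the 28 genes. Its probe for a position on chromosome 7 (EquCab1, chr7:53867166-53867225, ENSECAT00000018860) is shown in full for that reason, a choice made after its values were seen.
NARS2: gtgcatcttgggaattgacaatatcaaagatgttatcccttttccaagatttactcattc
The 4 arrays gave -0.18, -0.16, -0.32 and -0.66, all below 0, with a mean of -0.33 (SD 0.23, 95% interval -0.57 to -0.10). Without array 4, the lowest, the mean was -0.22. The limma adjusted p was 0.055, just above the threshold, and 0.0475 without lowess, where the mean was -0.40. With normexp and loess the mean was -0.20 (limma adjusted p = 0.0734). Its cytosolic counterpart NARS had a mean of 0.03.

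The remaining mitochondrial genes ranged from -0.13 to 0.13. EARS2, for glutamate, was at 0.13 with 1 high array (-0.01, 0.48, 0.11 and -0.04). RARS2, for arginine, was at 0.13 and CARS2, for cysteine, at 0.11, both positive on all 4 arrays. FARS2, for phenylalanine, was at 0.10, VARS2, for valine, at 0.04 and PARS2, for proline, at 0.02, and EARS2, VARS2 and PARS2 had the other sign without lowess. IARS2, for isoleucine, was at -0.03, HARS2, for histidine, at -0.09 and YARS2, for tyrosine, at -0.13 with all 4 arrays below 0. Their limma adjusted p ran from 0.183 to 0.827.

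Of the 6 genes named only in the probe descriptions, WARS2 gave the clearest values. WARS2, the mitochondrial tryptophanyl enzyme (ENSECAT00000023030, chromosome 5), had 5 probes, each set 20 bases from the next and so sharing sequence, with means from 0.23 to 0.34, and its brightest gave 0.19, 0.41, 0.40 and 0.26. That probe had a mean of 0.32 (95% interval 0.15 to 0.48, limma adjusted p = 0.022), and 4 of the 5 overlapping probes, which count as a single measurement, passed. TARS2, the mitochondrial threonyl enzyme, had 2 overlapping probes on either side of the threshold. The brighter TARS2 probe gave 0.22, 0.16, 0.20 and 0.19, a mean of 0.19 (limma adjusted p = 0.056), and the other a mean of 0.23 (limma adjusted p = 0.037).

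SARS, for serine, stood at 0.17 (limma adjusted p = 0.149), and AARS2 at 0.10, SARS2 at 0.04 and MARS2 at -0.03 were further from the threshold. Counting these 6 genes, an addition made after the data were seen, gave 2 of 34 genes higher, CARS and WARS2, and 0 lower by limma, with 7 of 34 at an unadjusted p under 0.05, against 10.9%, 11.5% and 37.9% of all genes.

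Partners that act beside the synthetases held 1 call. The list held 10 tested genes for amidation, formylation, selenium and proofreading steps of tRNA charging. SEPHS1 was higher by limma (1 of 10, against 10.9% of all genes) and 0 were lower. At an unadjusted p under 0.05 limma gave 2 of 10, against 37.9% of all genes. The median of the list was 0.03, and with 1 array left out it ran from -0.02 without array 4 to 0.08 without array 1. SEPHS1, named for selenophosphate synthetase, gave 0.37, 0.34, 0.52 and 0.53, a mean of 0.44 (limma adjusted p = 0.008). It passed with any 1 array left out. SEPHS2, which makes the selenium donor for selenocysteine, stood at -0.22 (limma adjusted p = 0.110). The others were GATC 0.03, QRSL1 0.03, GATB -0.10, MTFMT 0.06, PSTK 0.10, SEPSECS 0.09, DTD1 -0.03 and PTRH2 -0.04. Outside the list, TARSL2 stood at 0.08 (-0.10 without lowess) and AARSD1 at 0.04.

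Upstream of charging, in the maturation and modification of tRNA, 27 of the 34 genes considered were tested and 4 (14.8%) were higher by limma, against 10.9% of all genes higher and 22.4% called in either direction, with a median of 0.08 against 0.02. POP5 and RPP21, protein subunits of the RNase P that trims the leading end of precursor tRNA, had means of 0.40 (limma adjusted p = 0.007) and 0.37 (limma adjusted p = 0.011), and all 5 tested probes of each passed. POP5 passed with any 1 array left out, and RPP21 did not without array 2 or 3 (limma adjusted p = 0.0632 and 0.050015, the latter just over the threshold). TRMT61A, of the tRNA adenine methyltransferase, was at 0.31 (limma adjusted p = 0.037) and TRDMT1, a tRNA cytosine methyltransferase, at 0.28 (limma adjusted p = 0.036; its other probe, at 0.18, did not pass), and both lost the call without lowess (limma adjusted p = 0.274 and 0.0593). TRMT61A also lost it without array 1, 2 or 3 (limma adjusted p = 0.0906, 0.110 and 0.147) and with normexp and loess (0.0659), and TRDMT1 without array 2, 3 or 4 (0.152, 0.114 and 0.0758). The genes considered here held 1 call without array 2, 1 without array 3 and 2 without lowess.

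Downstream, 7 of 8 cytosolic elongation genes were tested. By their brightest probe 1 was higher and 2 were lower by limma, 42.9% against 22.4% of all genes. The 2 include EEF2, whose probes differed in direction. EEF1A2, the form of the tRNA-carrying factor found in muscle and nerve, gave -0.37, -0.88, -1.36 and -1.58, a mean of -1.05 (limma adjusted p = 0.015), and lost the call without array 3 (limma adjusted p = 0.0559). With normexp and loess its mean was -0.68. EEF1A1, the widespread form, had a mean of 0.30 (limma adjusted p = 0.049), which was lost without array 1, 2 or 3 (limma adjusted p = 0.121, 0.176 and 0.175), and 1 of its 3 probes passed. Its mean was 0.63 with normexp and loess and 1.25 without lowess. EEF2, the translocation factor, had probes that passed in opposite directions, at -0.38 and 0.30, and the brighter gave 0.011 without lowess and lost the call without array 2, 3 or 4 (limma adjusted p = 0.120, 0.142 and 0.0860), so no direction is given for it. EEF1D stood at -0.01, EEF1G at 0.13 (its other probe passed, at 0.27), EEFSEC at 0.14 and EIF5A at 0.14, and EEF1D and EEF1G passed without lowess, at 0.54 and 0.37. The list held 1 call without array 2 and 0 without array 3.

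In mitochondrial translation, 9 of 10 factors were tested and 0 passed by limma, against 22.4% of all genes. Limma gave 1 at an unadjusted p under 0.05, against 37.9%. The median was 0.03. TSFM, the exchange factor that recharges TUFM, was highest at 0.22 (limma adjusted p = 0.064), and 1 of its 5 probes passed. MTIF3, an initiation factor, stood at 0.21. The rest were MTRF1 0.08, MTIF2 0.07, ICT1 0.03, MRRF 0.01, TUFM -0.03, GFM2 -0.10 and MTRF1L -0.10.

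Of 30 genes of the amino acid response, the programme that ATF4 drives, 26 were tested, 4 were higher and 1 was lower by limma, together 19.2% against 22.4% of all genes, with a median of 0.13 against 0.02. ATF4 itself gave 0.20, 0.02, 0.01 and -0.32, a mean of -0.02 (limma adjusted p = 0.876), and 0.26 without lowess (limma adjusted p = 0.0483). Its highest value fell on array 1 and its lowest on array 4. Of the 18 cytosolic synthetases, 12 were highest on array 1 and 12 lowest on array 4. These arrays held the highest and the lowest value for 34.0% and 34.4% of all genes. A link between ATF4 and the synthetase values was not tested. ASNS, asparagine synthetase, a well known target named here after its values were seen, gave 0.58, 0.86, -0.24 and -0.62.

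The called genes of that list were SESN2 at 0.54 (limma adjusted p = 0.028), a stress-induced leucine sensor, TRIB3 at 0.48 (limma adjusted p = 0.016), a pseudokinase that restrains ATF4, CTH at 0.34 (limma adjusted p = 0.042), which makes cysteine, and SLC7A5 at 0.27 (limma adjusted p = 0.037), the leucine transporter. ATF3, a stress-induced transcription factor, was lower at -0.52 (limma adjusted p = 0.032), but was well above background with HMB on 1 of 4 arrays, so it was tested through the control channel and its size is uncertain. Among the 25 genes with both channels above background, 4 were higher and 0 lower by limma, with 7 at an unadjusted p under 0.05. With that filter 21.4% of all genes were called in either direction. Without the filter, 37.9% of all genes had an unadjusted p under 0.05 by limma. The number of calls in the list was 0 without array 3 and 1 without array 1 or array 2. Without arrays 1, 2 and 3 in turn, the limma adjusted p was 0.0528, 0.0790 and 0.0921 for SESN2, 0.0975, 0.137 and 0.152 for CTH, and 0.0865, 0.162 and 0.143 for SLC7A5. TRIB3 lost the call without array 1 (0.0504) and array 3 (0.0618), and ATF3 without arrays 2, 3 and 4 (0.114, 0.107 and 0.0878). SESN2 and SLC7A5 did not pass without lowess, with means of 0.33 and 0.14, SESN2 was at 0.24 with normexp and loess, and ATF3 did not pass with normexp and loess, at -0.16.

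**Figure D5:**
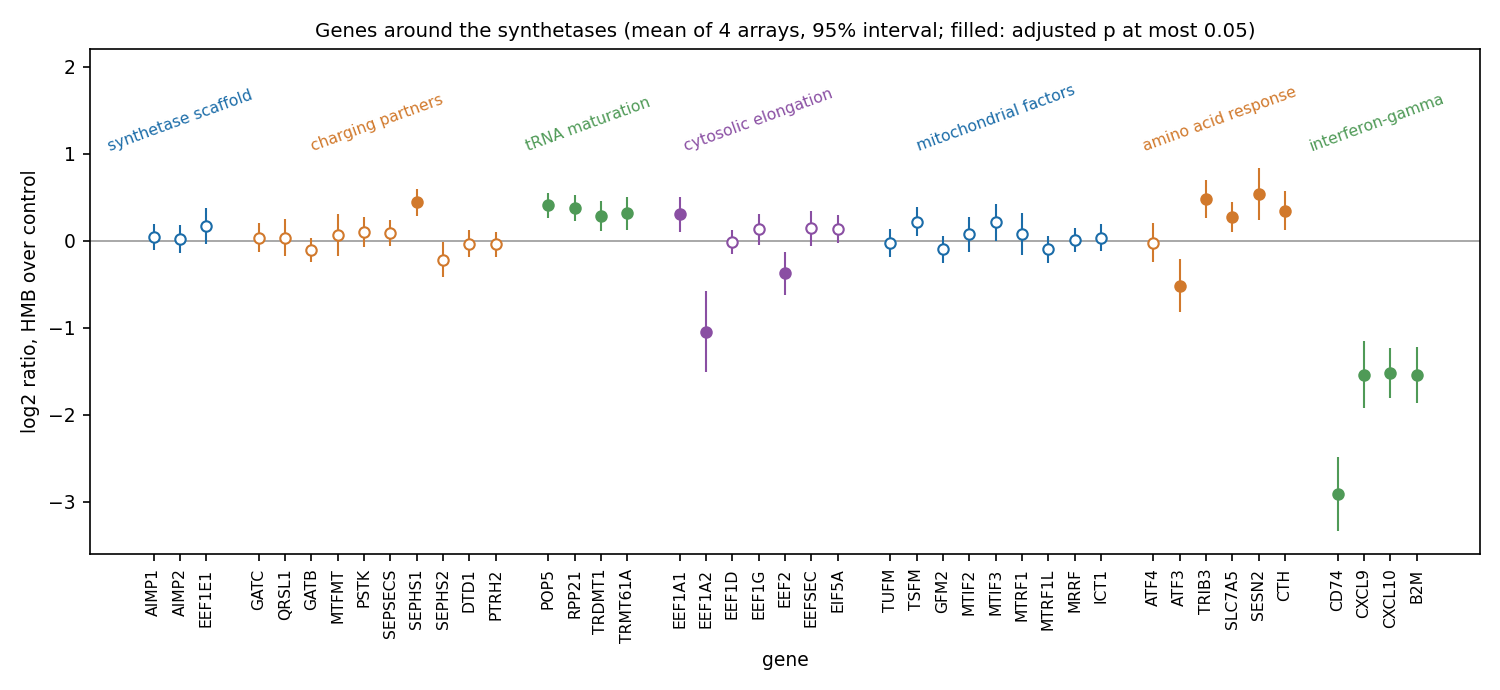
Mean log2 ratio of HMB-treated over control cells with its limma 95% interval (y axis, 4 arrays) for named genes of the lists around the synthetases (x axis), filled where the limma adjusted p is at most 0.05. Most partners and factors lie near 0, while CD74, CXCL9, CXCL10 and B2M lie between -2.91 and -1.52. With HMB, CD74 and ATF3 were well above background on 1 of 4 arrays and CXCL9 on 3. Genes with the other sign without lowess are EEF2, EEF1D, ATF4, SEPSECS, PTRH2, TUFM and MRRF, and with normexp and loess AIMP2, QRSL1, EEF1D and MRRF.

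Because WARS answers to interferon-gamma in mammals, genes of that response were set beside it. Of 10 tested, 7 were lower and 0 higher by limma, with a median of -0.88 and 9 at an unadjusted p under 0.05, against 11.5% of all genes lower and 37.9% at that unadjusted p. These 9 include CIITA, the class II transactivator, which had a mean of 0.32 (limma adjusted p = 0.056), a gene named after its values were seen. CD74 and CXCL9 were well above background with HMB on 1 and 3 of 4 arrays, and on each array in control cells, so they were tested through the control channel and their sizes are uncertain. Of the 8 genes with both channels above background, 5 were lower and 0 higher by limma, with a median of -0.73. CD74, an antigen presentation chaperone, gave -2.26, -2.82, -3.34 and -3.24, a mean of -2.91. B2M, the light chain of class I molecules, had a mean of -1.54, and the chemokines CXCL9 and CXCL10 had means of -1.54 and -1.52. B2M and CXCL10, with both channels above background, were lower on each of the 4 arrays and passed with any 1 array left out, without lowess, and with normexp and loess, where CXCL10 was at -0.96. With normexp and loess CD74 was at -1.36 and CXCL9 at -0.69. WARS, at 0.09, had no such value, with 0.06 with normexp and loess and 0.12 without lowess.

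The muscle identity of the cells was checked on marker genes. Of 14 myogenic markers, 11 had a probe, each with both dyes well over background, and PAX7, CDH15 and MYMK had none by symbol. By limma, 11 of 11 were lower with HMB by their brightest probe, against 11.5% of all genes, among them MYH8 at -1.93, MYH3, the brightest, at -1.11 (-0.42 without lowess), MYF5 at -1.01 and DES at -0.98. MYOD1 had 1 of 2 probes that passed. The median of the 11 markers was -0.44, -0.80, -1.06 and -1.26 on arrays 1 to 4, and the summed signal of their probes was 147964, 103026, 95260 and 87386 with HMB against 200323, 202593, 218657 and 231237 in control cells. Fewer cells of a type and less RNA per cell cannot be told apart here.

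Array 1, where the cytosolic synthetases were highest, thus had the smallest fall of the myogenic markers and array 4, where they were lowest, the largest. The fibroblast markers had medians of 0.25, 0.11, 0.06 and -0.07 on arrays 1 to 4, also highest on array 1 and lowest on array 4. Not every marker followed this order. PDGFRA rose from array 1 to array 4 (1.09, 1.38, 1.46 and 2.19), and S100A4 was lowest on array 1. The part of either marker list in the synthetase values was not tested. Of the fibroblast markers 8 of 10 were tested and 2 were higher by limma, against 10.9% of all genes, PDGFRA at 1.53 (0.89 with normexp and loess) and FAP at 0.42, with 0 lower. FAP lost the call without array 1, 2 or 3 (limma adjusted p = 0.0532, 0.0806 and 0.0752). COL1A2 (-0.20), COL3A1 (-0.21), THY1 (-0.10), DCN (0.15), LUM (0.01) and S100A4 (0.10) did not pass by their brightest probe, while 2 of 9 COL1A2 probes (the lowest at -0.59) and 1 of 2 DCN probes (0.39) did, and COL1A2, the brightest, and COL3A1 were at 0.81 and 0.70 without lowess and passed. DCN and S100A4 passed at 0.87 and 0.96 without lowess and at 0.36 and 0.39 with normexp and loess. Of the leukocyte markers considered, CD14 (0.02) and CD68 (-0.29) were tested and 0 passed by limma, with 1 at an unadjusted p under 0.05, while CD3E, CSF1R and ITGAM were not well above background. Among the endothelial markers ERG alone was tested, at 0.03, with PECAM1, CDH5, VWF, KDR and TEK not well above background, and 0 of 5 adipocyte markers with a probe could be tested.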

How the data were processed

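The authors hybridised RNA to two-colour Agilent arrays and deposited scanner tables made with Feature Extraction (10.10.1.1 in the file headers, another version in the methods). The deposited ratio column, a log10 ratio of treated (Cy5) to control (Cy3) signal, was background-subtracted and dye-normalised (linear and lowess) by the authors, and the deposited intensity columns, before and after those steps, served the alternatives. Deposited ratios were multiplied by log2(10). Each array held 43803 spots after 1417 control spots were left out. Spots marked as outliers (11 to 32 per array) were left out, and spots of a probe were averaged. Signal over background ranged from 3.16 to 5.85, and the 4 arrays limit the precision. limma 3.58.1 in R 4.3.3 tested the mean ratio against 0 (two-sided, Benjamini-Hochberg over 27384 probes, threshold 0.05), after a check on simulated data. Genes were named from the array's own columns, and otherwise through RefSeq accessions. Every synthetase with a probe was named, every tested gene of a related list of at most 10, and of longer lists up to 4 called genes in each direction with the largest sizes, and ATF4. Members and lists were chosen with earlier results of these data known, and 3 genes of the related and marker lists are not reported here. Alternatives were normexp (offset 50) with loess, centring without lowess, the t-test named in the study's supplementary workbook, unpaired channels, other filters, other naming and leaving out each array.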

Additional observations from a re-analysis of the deposited data

Results flagged for a closer look

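In 4 genes 1 array stood far from the other 3. A gap of this relative size arises by chance in about 1 of 20 genes, and 94 genes were looked at. For DARS, array 4 gave -0.47 and the other 3 arrays 0.09 to 0.14. For YARS, array 1 gave 0.43 and the others 0.10 to 0.15. For EEF1A1, array 4 gave 0.023 and the others 0.37 to 0.42, and for SLC7A5 array 4 gave 0.093 and the others 0.31 to 0.35. In 3 of the 4 genes the array apart was array 4. That array also had the widest spread over all tested genes, with an SD of 0.47 against 0.34 to 0.39 on the others.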

How the results depend on the processing

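The count of called synthetases was at most 2 under most settings. In several of these the share of all genes called was also lower, down to 2.63% by the unmoderated t-test, where 1 of 28 synthetases passed. Centring without lowess gave 7 of 28, against 24.9% of all genes. There 6 members were higher and 1 lower, the mitochondrial median was -0.021, the difference of the medians 0.21 and above 0 on each array, and AARS (0.27), GARS (0.46), KARS (0.50), ATF4 (0.26), EEF1D (0.54), EEF2 (0.011), COL1A2 (0.81) and COL3A1 (0.70) changed sign, as did 6 members and 6 named genes of other lists that passed under neither scaling. The synthetases of the complex then had 1 call and a median of 0.16, the scaffold a median of 0.13, and tRNA maturation 2 calls. The cause was not tested.

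Members higher were 0 with normexp and loess and with no replicate block, where 21.3% and 7.72% of all genes were called in either direction. They were 2 with no filter on dim probes, where 8.23% were called, and 2 with the probes named in descriptions. Probes called numbered 768 by the unmoderated t-test, 3690 with no filter, and 2226 with no replicate block. Without replicate 1, 2, 3 or 4, where fewer arrays were fitted, members higher were 0 in each case. Of all genes, 17.2%, 8.94%, 9.56% and 17.1% were called in either direction in these fits, in that order. The mitochondrial median ranged from -0.038 to 0.053 and probes called from 2573 to 4957. Calls ranged from 1 to 4 in tRNA maturation, 0 to 2 in elongation and 0 to 5 in the amino acid response.

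Keeping marked spots and requiring both channels above background left the member counts at 1 higher and 0 lower. These settings called 22.3% and 21.4% of all genes. Requiring both channels for the other lists, chosen after seeing the data, gave 4 of 25 amino acid response, 5 of 8 interferon-gamma and 5 of 26 tRNA maturation calls. With 4 arrays, 1 dye orientation and 1 slide, dye effects and culture-to-culture differences limit what ratios of this size can show.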
